A study of Mus musculus with 48 samples.

Results

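Fluoxetine (FLX) was compared with saline vehicle in the right amygdala of wildtype (WT) female mice. The members were the 8 libraries titled WT FLX 1 to 8 and the 8 titled WT vehicle 1 to 8, 16 of the 48 libraries of the series. The labels number the libraries without saying that each came from another mouse, so p-values measure the spread between libraries. The mice belonged to the C57BL/6NTac-Brd1 line, were 8 to 11 weeks old and carried no Brd1 deletion. Their littermate Brd1+/- mice, which carry a targeted deletion in 1 copy of Brd1, were used here for the same drug in another genotype, 8 libraries with FLX and 8 with vehicle. A further 8 WT libraries, from mice given 10 mg/kg imipramine (IMN), a tricyclic antidepressant, were set beside FLX. The FLX group received 5 mg/kg FLX and the vehicle group saline, both by subcutaneous injection on consecutive days. Each mouse passed through the tail suspension, open field and forced swim tests before the brain was taken on the second day, so both groups had been swum and handled. The sample codes in the labels fall into separate ranges for vehicle and FLX, so handling that followed the codes and the drug cannot be told apart. RNA came from a punch of a frozen coronal slice, a sample that can take in tissue around the amygdala.

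Fluoxetine is a selective serotonin reuptake inhibitor: it blocks the serotonin transporter, encoded by Slc6a4, and leaves more serotonin outside cells. Serotonin fibres of the amygdala arise from raphe neurons of the brainstem, which hold the transporter mRNA in their cell bodies. The amygdala sets fear and stress responses, and a swim or an injection switches on immediate-early genes in its neurons within minutes and releases glucocorticoids that act on its neurons and glia within hours. The comparison asks which transcripts differed between drug and saline mice soon after the second dose and the swim.

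Levels were deposited as TPM, a relative transcript abundance that corrects for transcript length and for the size of the library. A gene was called where limma, fitted across all tested genes on log2(TPM + 0.1), gave an adjusted p under 0.05. Of 23557 genes tested, 79 were called, 0.335% of those tested. With FLX, 66 genes rose (0.28%) and 13 fell (0.0552%). The lowest adjusted p was 0.0127. The unadjusted differences were wide: 1486 genes (6.31%) had p under 0.01, of which 942 were higher and 544 lower with FLX. Among the genes that rose, the log2 difference was at least 1 in 28 and smaller in 38, and its median was 0.72. The genes that fell had a median of -1.15. The median of all tested genes was 0.05, with 13372 genes above 0 and 10185 below.

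**Figure D1:**
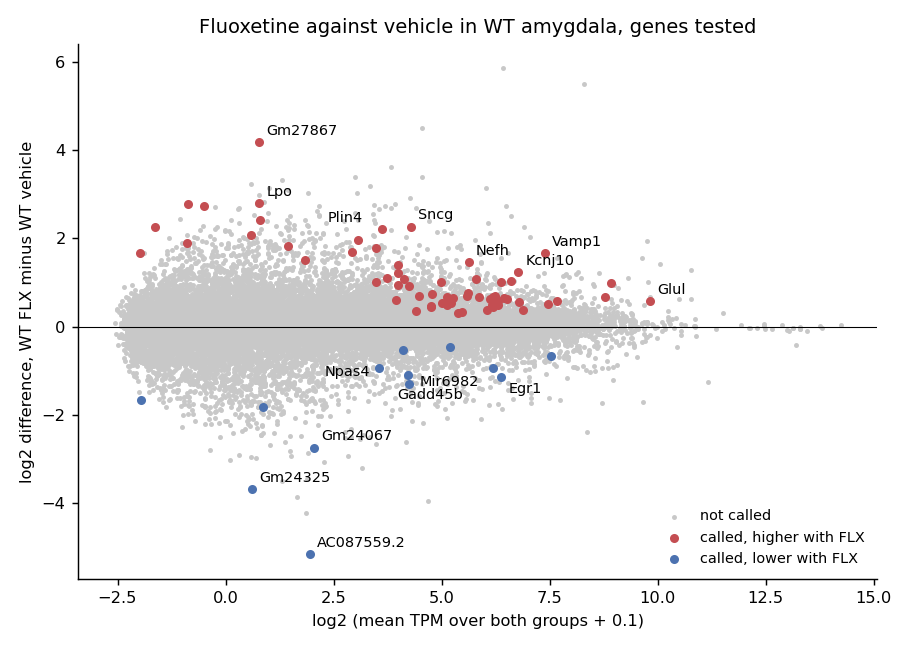
Each point is 1 tested gene, with its level (log2 of mean TPM over both groups + 0.1) on the x axis and the log2 difference of FLX minus vehicle on the y axis. The 66 genes called higher (red) reach up to 4.18 and include many well expressed genes near 0.6, and the 13 called lower (blue) include Egr1, Npas4 and Gadd45b between -0.95 and -1.15.

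The number of calls depended on single libraries. Left out in turn, WT vehicle 1 gave 956 calls, vehicle 2 gave 7, vehicle 3 gave 51, vehicle 4 gave 18, vehicle 5 gave 38, vehicle 6 gave 29, vehicle 7 gave 480 and vehicle 8 gave 7. Without FLX 1 there were 14 calls, without FLX 2 there were 7, without FLX 3 there were 11, without FLX 4 there were 10 and without FLX 5 there were 22. Without FLX 6 there were 148 calls, without FLX 7 there was 1, and without FLX 8 there were 247 higher and 108 lower. Gm27867 was the single gene called in all 16 of these fits. In every fit 77 of the 79 genes passed the filter on low levels. None of the 79 changed direction in any fit that tested it, and the 77 kept an unadjusted limma p under 0.01 throughout. The 79 were chosen from these same libraries and each fit kept all but 1 of them, so this is no independent support.

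**Figure D2:**
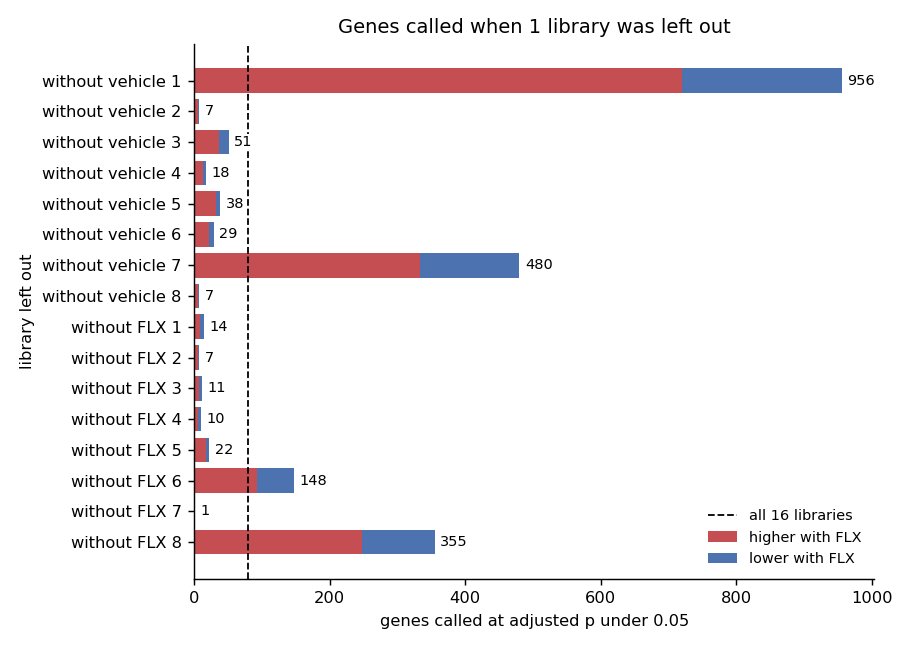
Bars give the number of genes called at adjusted p under 0.05 when the library named on the y axis was left out, higher (red) and lower (blue) with FLX, and the dashed line marks the 79 calls from all 16 libraries. The count runs from 1 without FLX 7 to 956 without vehicle 1.

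The libraries differed in the tissue they held. Slc17a7, the vesicular glutamate transporter of cortical and basolateral amygdala neurons, ranged from 6.56 to 1346 TPM with a median of 478 in vehicle libraries and from 3.42 to 739 with a median of 42.0 in FLX libraries. All 14 tested markers of basolateral amygdala and cortical excitatory neurons had a log2 difference below 0, with a median of -1.17, and 4 of them had p under 0.05 (6.25% of all genes were lower at that level), but none was called. Their summed level was 566.6 to 3289 TPM in vehicle and 304.4 to 1809 TPM in FLX libraries. Mature oligodendrocyte genes went the other way: all 16 were above 0 with a median of 1.25, 15 had p under 0.05 (10.5% of all genes were higher at that level) and none was called. Their summed level was 824.0 to 13250 TPM in vehicle and 2347 to 10200 TPM in FLX libraries. In bulk tissue fewer cells of a type and less RNA per cell cannot be told apart.

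Punches carried genes of neighbouring regions, some in single libraries and some across a group. Striatal projection neuron genes summed to 15790 TPM in vehicle 3, against medians of 1298 TPM in vehicle and 1010 TPM in FLX libraries, and Drd1, a dopamine receptor of those neurons, was at 140 TPM in vehicle 1 and 205 TPM in vehicle 3. Ttr, the transthyretin gene of the choroid plexus, was at 28370 TPM in vehicle 1 and 8383 TPM in FLX 2 and at 51.5 TPM or less elsewhere. Pmch and Avp, peptide genes of the hypothalamus, reached 3130 TPM in FLX 2 and 737 TPM in FLX 1, against at most 19.6 and 12.9 TPM in vehicle libraries. Over the 10 tested genes of the hypothalamic peptide list the median log2 difference was 2.37, with 8 above 0. Their list summed to medians of 21.3 TPM in vehicle and 140.1 TPM in FLX libraries. Of 12 tested thalamus and habenula markers 10 were above 0, with summed medians of 147.9 and 368.0 TPM. At p under 0.05, 4 of the 10 hypothalamic genes and 2 of these 12 were higher. None of either list was lower at that level, against 10.5% higher and 6.25% lower of all genes. Neither list held a called gene, and whether the called genes followed these levels was not tested. Hox genes, which mark hindbrain and spinal cord, summed to 14.2 TPM in FLX 6 and to at most 0.489 TPM in any vehicle library. Prkcd, a marker of the central amygdala, was present in every library, at 11.99 to 34.1 TPM in vehicle and 21.4 to 59.1 TPM in FLX. It is 1 of 21 tested amygdala neuropeptide list genes, of which 11 were above 0 and 10 below, with a median of 0.13. That list summed to medians of 2504 TPM in vehicle and 2434 TPM in FLX libraries. A single marker does not show how much central amygdala a punch held. Without vehicle 1 and 3, the striatum-rich pair, 1262 genes were called, 77 of the 79 among them, and without vehicle 1 and FLX 2, the pair with choroid plexus, 287 were called, 74 of the 79 among them.

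**Figure D3:**
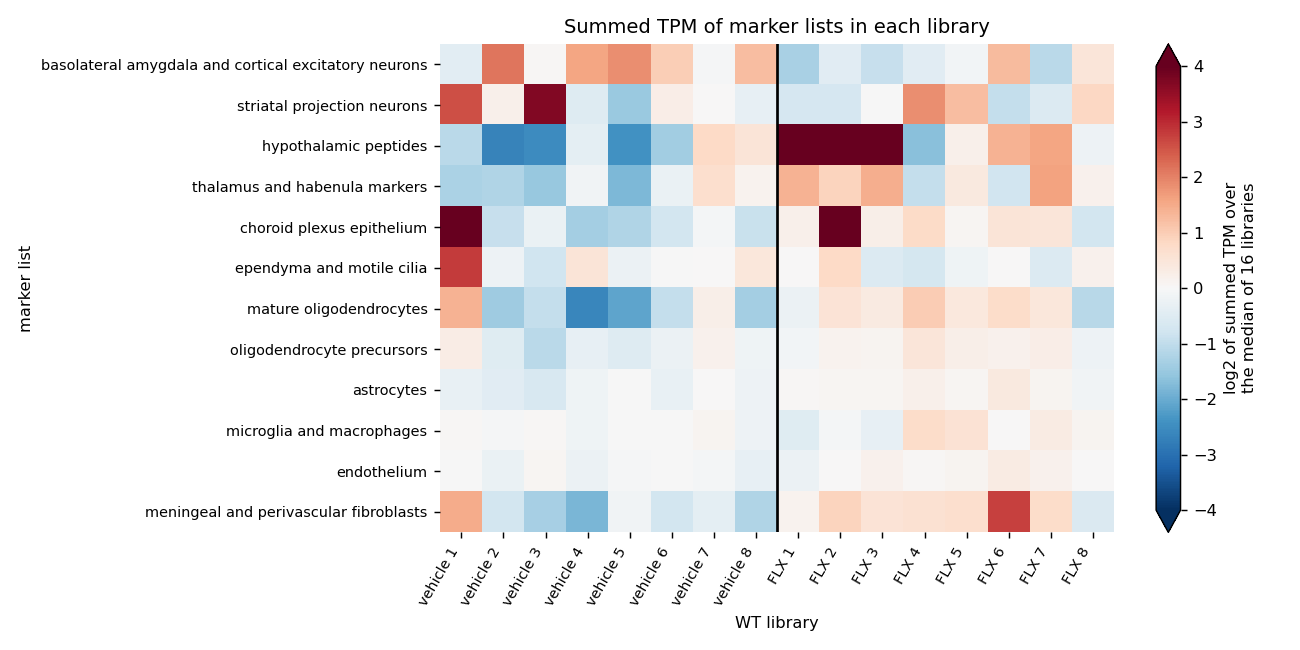
Rows are marker lists and columns the 16 WT libraries; colour gives the log2 of the summed TPM over the median of the 16 libraries, from blue (lower) to red (higher). Excitatory neuron genes are below that median in 6 FLX libraries and above it in FLX 6 and 8, oligodendrocyte genes are above it in 6 FLX libraries and below it in FLX 1 and 8, vehicle 1 and FLX 2 stand out for choroid plexus, vehicle 1 and 3 for striatum and FLX 1, 2 and 3 for hypothalamic peptides.

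Immediate-early genes are transcribed by neurons within minutes of firing. Of 21 tested immediate-early transcription factors 2 were called and 19 had a log2 difference below 0 and the median was -0.91. Egr1 and Npas4 fell and passed the test. At an unadjusted limma threshold of 0.05, 10 in all were lower and 1 higher, against 6.25% and 10.5% of all genes. Maff, a small Maf factor named after its value was seen, stood at 0.75 ± 0.20 (limma adjusted p = 0.0909). Among 24 tested effectors, the secreted, synaptic and signalling products of the same response, 20 were below 0 and the median was -0.41. Gadd45b fell and passed the test, and at an unadjusted limma p under 0.05, 11 of the 24 were lower and 1 higher. Under median-ratio scaling the medians were -0.96 and -0.47. These medians stand beside 0.05 over all genes (0.00 after median-ratio scaling).

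Npas4, a neuron-specific transcription factor that rises with calcium entry and shapes inhibitory synapses, was measured at 9.88 to 31.2 TPM with a median of 13.3 in vehicle libraries and at 5.84 to 9.71 TPM with a median of 7.68 with FLX. All 8 FLX libraries lay below all 8 vehicle libraries, as they did for 0.0255% of tested genes, and vehicle 1 held the highest level. The log2 difference was -0.95 ± 0.19 (SE), with a limma adjusted p of 0.0429. Gadd45b, which takes part in DNA demethylation and in activity-dependent growth, was at 16.4 to 37.0 TPM, median 23.4, in vehicle and at 7.46 to 17.6 TPM, median 10.9, with FLX. The groups overlapped only where FLX 6 and 8 lay above vehicle 1, and the log2 difference was -1.11 ± 0.21 (limma adjusted p = 0.0352).

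The promoters of Npas4, Gadd45b and Fos are shown because they set called activity-driven genes beside an uncalled one. Each runs from 250 bases before to 50 after the start in RefSeq on GRCm38.p6. The motifs searched on both strands were the cyclic AMP response element (CRE) TGACGTCA, its partial form TGACG, which the full CRE contains, the E-box CACGTG, the TATA motif TATAAA, AP-1 TGANTCA, the glucocorticoid receptor motif part TGTTCT and the CArG box. Capitals mark the CRE, partial CRE, E-box, TATA and CArG matches.
Npas4 (chr19:4989922-4990221, minus strand): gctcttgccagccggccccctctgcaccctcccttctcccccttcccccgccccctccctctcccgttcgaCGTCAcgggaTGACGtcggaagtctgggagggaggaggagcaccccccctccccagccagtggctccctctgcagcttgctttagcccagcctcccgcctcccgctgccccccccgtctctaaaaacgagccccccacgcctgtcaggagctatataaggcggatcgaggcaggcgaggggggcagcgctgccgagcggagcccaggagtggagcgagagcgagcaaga
Gadd45b (chr10:80929841-80930140, plus strand): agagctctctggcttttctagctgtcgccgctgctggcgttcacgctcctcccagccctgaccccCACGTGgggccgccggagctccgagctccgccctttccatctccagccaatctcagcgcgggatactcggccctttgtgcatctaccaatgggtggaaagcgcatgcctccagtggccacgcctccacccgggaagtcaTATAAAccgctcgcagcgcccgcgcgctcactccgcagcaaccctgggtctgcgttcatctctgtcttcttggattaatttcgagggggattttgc
Fos (chr12:85473640-85473939, plus strand): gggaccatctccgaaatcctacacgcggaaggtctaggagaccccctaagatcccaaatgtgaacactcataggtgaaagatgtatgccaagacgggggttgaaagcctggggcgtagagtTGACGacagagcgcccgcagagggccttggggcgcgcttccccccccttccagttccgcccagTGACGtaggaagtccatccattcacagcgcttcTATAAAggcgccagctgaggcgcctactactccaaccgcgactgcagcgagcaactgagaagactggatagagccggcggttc

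In these windows Npas4 held a pair of partial CREs, starting 179 and 169 bases before the start, Fos held partial CREs starting 129 and 66 bases before it and a TATA motif starting 33 before it, and Gadd45b held an E-box and a TATA motif. The partial CRE was present in 20.8% of all 32851 promoters and in 12 of the 55 called genes with a promoter in the table (21.8%). The full CRE was in 1.79% of all promoters and in 3.64% of these called genes, and the glucocorticoid motif part in 19.0% and 12.7%. The E-box was in 7.15% and 9.09%, TATA in 13.6% and 7.27%, AP-1 in 7.81% and 10.9% and the CArG box in 1.63% and 1.82%. In each pair the first share counts promoters. The second counts genes with a match in any of their promoters, so the shares are not like measures. A match describes these letters and is not a measured binding site.

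Egr1, a zinc finger factor used as a readout of neuronal activity, was at 75.2 to 144 TPM with a median of 120 in vehicle libraries and at 27.5 to 81.8 TPM with a median of 51.2 with FLX. 6 FLX libraries lay below every vehicle library, and FLX 6 and 8, at 81.8 and 78.1 TPM, lay just above vehicle 7. Its mean fell from 113 ± 23.2 to 53.3 ± 19.3 TPM (SD, n = 8 each), a log2 difference of -1.15 ± 0.21 with a limma adjusted p of 0.0287. The gene lies at chr18:34859823-34864984 on GRCm38. The genes in the rest of this paragraph are named after their values were seen, and none passed the test. The log2 difference of Egr4 was -1.75 ± 0.39 (adjusted p = 0.058), of Nr4a1 -1.03 ± 0.28 (0.0912), of Egr3 -1.48 ± 0.40 (0.0919) and of Fosl2 -0.93 ± 0.27 (0.108), all by limma. Among effectors, Plk2 had -1.22 ± 0.28 (0.0613), Homer1 -1.26 ± 0.30 (0.0649) and Arc, the synaptic plasticity gene, -1.37 ± 0.36 (0.089).

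Fos, a widely used marker of recent activity, was not called. It was at 5.79 to 58.1 TPM with a median of 50.4 in vehicle and at 17.1 to 56.5 TPM with a median of 31.2 with FLX. 6 vehicle libraries, at 47.3 to 58.1 TPM, lay above 7 FLX libraries, at 17.1 to 40.4 TPM, and the groups crossed at vehicle 1, vehicle 3 and FLX 1. Its log2 difference was -0.23, with p = 0.657 in a two-sided exact permutation test over all arrangements of the 16 libraries (0.657 when adjusted over the 4 genes tested this way). Without vehicle 3, which like vehicle 1 was high in striatal genes, the difference was -0.61 and the exact permutation p 0.0275. This was the largest fall among the fits with 1 library left out, and it was picked after the values were seen. With the covariates of the next paragraph the log2 difference of Fos lay above 0, at 0.25, 0.14 and 0.31.

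With the mean level of the excitatory neuron markers, of the oligodendrocyte markers or of both as covariates, alternatives chosen after the data were seen, no gene was called. With both, 1152 genes had an unadjusted p under 0.01, and the log2 difference was -1.06 for Egr1 (limma adjusted p = 0.169), -1.10 for Npas4 (0.149) and -0.75 for Gadd45b (0.182). These 3 kept their direction, while Fos reversed to 0.31 (0.745). Camk2a, the abundant kinase of excitatory neurons, was itself at 339 to 1040 TPM in vehicle and 158 to 609 TPM in FLX libraries, a log2 difference of -1.20 ± 0.32 (limma adjusted p = 0.0912).

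**Figure D4:**
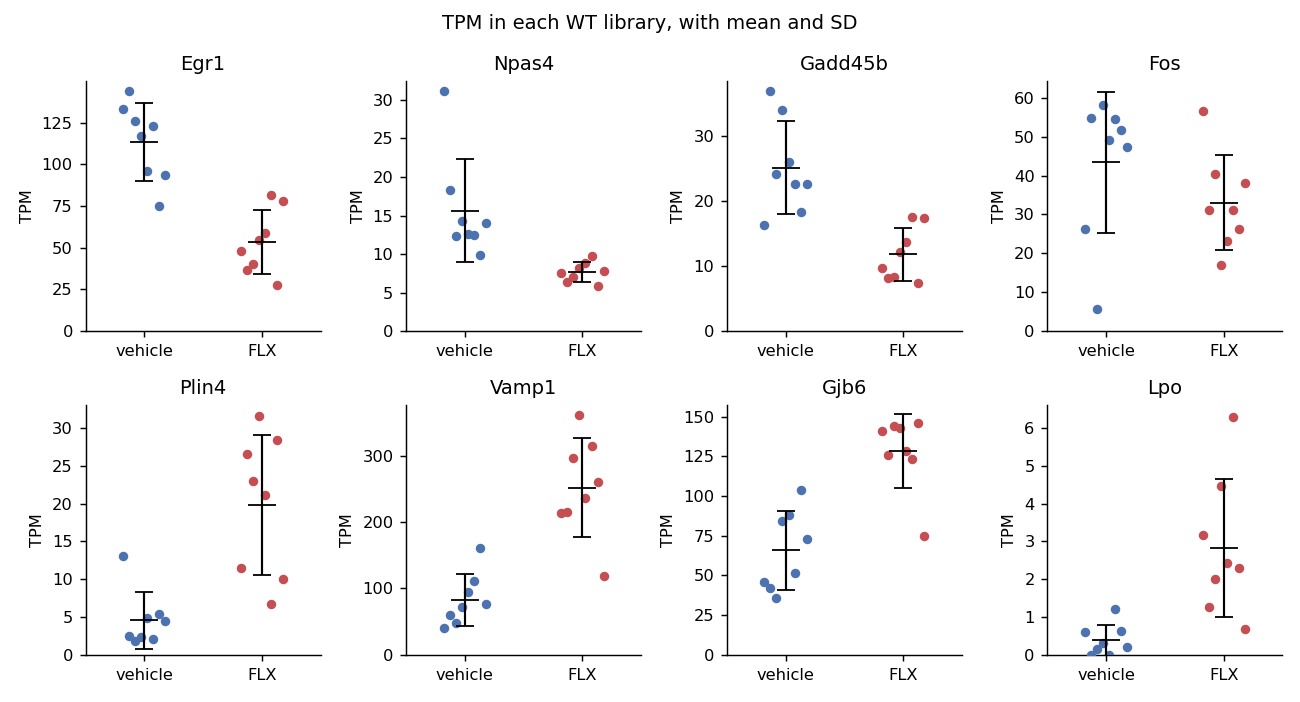
TPM of 8 genes in each WT library (points; vehicle blue, FLX red), with mean and SD as black bars. Npas4 does not overlap between groups, Egr1 and Gadd45b overlap at 2 FLX libraries, Fos crosses at vehicle 1, vehicle 3 and FLX 1, and Plin4, Vamp1, Gjb6 and Lpo are higher with FLX.

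Of 20 tested genes for glucocorticoid receptors, their targets and corticotropin-releasing hormone signalling, 8 had p under 0.05 above 0 and 1 below. Over all genes those shares were 10.5% and 6.25%. The median was 0.42 (0.37 after median-ratio scaling), and Plin4 and Cdkn1a rose and passed the test. Plin4, a coat protein of lipid droplets, was at 1.81 to 13.1 TPM with a median of 3.44 in vehicle and at 6.77 to 31.5 TPM with a median of 22.1 with FLX. Vehicle 1 was the single vehicle library within the FLX range, and the log2 difference was 2.22 ± 0.41 (limma adjusted p = 0.0311). Cdkn1a, the cell cycle inhibitor p21, rose from 26.5 ± 3.20 to 42.8 ± 10.3 TPM (SD, n = 8 each), with 7 FLX libraries above all vehicle libraries (log2 0.67 ± 0.13, limma adjusted p = 0.0422). Plin4 shares exon bases with Hdgfl2 and Cdkn1a with AC167363.2, so their levels are less certain.

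Others of that list, named after their values were seen, fell short of the call. Tsc22d3, which encodes the glucocorticoid-induced leucine zipper, had a log2 difference of 0.72 ± 0.16 (limma adjusted p = 0.0573) and Sgk1, the serum and glucocorticoid kinase, 1.22 ± 0.34 (0.0998). Fkbp5, a chaperone of the receptor, stood at -0.04 ± 0.15 (0.927), and the receptor gene Nr3c1 at -0.10 ± 0.13 (0.757). Ddit4, an inhibitor of mTOR that stress and glucocorticoids induce, was no member and is named after its values were seen: all 8 FLX libraries, at 65.6 to 128 TPM, lay above all 8 vehicle libraries, at 52.6 to 63.3 TPM (log2 0.69 ± 0.12, limma adjusted p = 0.0251). Groups lay apart upwards in 0.127% of tested genes. Plin4, Cdkn1a and Ddit4 also belonged to the few called genes with a difference above 0 in the Brd1+/- mice, described later. Of these 3 only Ddit4 had an unadjusted limma p under 0.05 there.

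Of 14 tested astrocyte markers 1 was called, 13 were above 0 and the median was 0.46 (0.41 after median-ratio scaling). At p under 0.05, 8 were higher and 1 lower, against 10.5% and 6.25% of all genes, and Gjb6 rose and passed the test. Gjb6, the gap junction protein connexin 30, was at 36.1 to 104 TPM with a median of 62.5 in vehicle and at 74.8 to 146 TPM with a median of 134.6 with FLX. 7 FLX libraries lay above all vehicle libraries and FLX 8 did not (log2 1.03 ± 0.21, limma adjusted p = 0.0498). Of other members, named after their values were seen, Aldoc, an aldolase of astrocytes, had 0.51 ± 0.11 (0.0566) and Atp1b2 0.64 ± 0.14 (0.0555). Slc1a2, the main glutamate transporter, stood at -0.43 ± 0.13 (0.125), and Gfap, the filament of reactive astrocytes, at 0.57 ± 0.45 (0.56). The summed astrocyte level was 1763 to 2786 TPM in vehicle and 2486 to 3616 TPM in FLX libraries.

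Acsbg1, an acyl-CoA synthetase, and Acyp2, an acylphosphatase, were among the genes with the lowest p, and neither is a list member. Acsbg1 was at 67.8 to 109 TPM in vehicle and 112 to 145.2 TPM with FLX (log2 0.56 ± 0.08, limma adjusted p = 0.0154), and Acyp2 at 27.8 to 31.9 TPM and 35.4 to 54.6 TPM (0.66 ± 0.09, 0.0152). Neither overlapped. The next genes are named after their values were seen. Ntsr2, a neurotensin receptor, rose from 71.4 ± 10.9 to 110 ± 13.0 TPM (SD, n = 8 each), without overlap. Kcnj10, the inward rectifier that clears potassium, rose from 65.0 ± 21.4 to 153 ± 40.5 TPM (SD, n = 8 each). Glul, glutamine synthetase, was at 618.7 to 970.7 TPM in vehicle and 851.8 to 1333 TPM with FLX, a rise of 0.58 ± 0.11 on the log2 scale (limma adjusted p = 0.0399). The Glul copy Glns-ps1, a processed pseudogene, rose as well, and reads of both cannot be told apart with certainty. Glul also shares exon bases with Teddm2.

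Vamp1, a vesicle protein for fast transmitter release, was at 40.9 to 161 TPM with a median of 74.5 in vehicle and at 119 to 361 TPM with a median of 248 with FLX. FLX 8 alone fell within the vehicle range, below vehicle 7, and the log2 difference was 1.66 ± 0.27 (limma adjusted p = 0.0203). Of 30 tested synaptic vesicle genes 5 were higher and 3 lower at p under 0.05, against 10.5% and 6.25% of all genes. Vamp1 was the 1 of these 30 that passed, where 0.28% of all tested genes were called higher. Of those that did not, named after their values were seen, Syt2, the fast calcium sensor, had 2.13 ± 0.46 (0.0545), and Sv2b, in the other direction, -1.40 ± 0.42 (0.115). Nefh, the heavy neurofilament of large axons, rose from 25.3 ± 8.70 to 73.5 ± 36.0 TPM, and Sncg, gamma-synuclein, from 6.92 ± 5.62 to 31.97 ± 19.9 TPM (SD, n = 8 each). Nefh had a log2 difference of 1.46 ± 0.28 (0.0382) and Sncg of 2.27 ± 0.46 (0.0446).

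Of 75 tested sodium, calcium and potassium channel genes 10 were higher and 14 lower at p under 0.05, against 10.5% and 6.25% of all genes, and Scn1a and Kcna10 rose and passed. Scn1a, a sodium channel of fast-spiking interneurons and many projection neurons, was at 21.9 to 46.9 TPM in vehicle and 40.6 to 77.8 TPM with FLX (log2 0.77 ± 0.15, limma adjusted p = 0.0424). Kcna10 was at the edge of detection, listed at 0 in 7 vehicle libraries and at 0.158 to 0.603 TPM with FLX. The uncalled Kcnc1, a fast potassium channel named after its value was seen, had 0.83 ± 0.18 (0.0573). P2rx5, an ATP-gated channel, was at 0 to 0.978 TPM in vehicle and 1.52 to 4.23 TPM with FLX, without overlap (2.41 ± 0.42, 0.0251).

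Ucp3, a mitochondrial carrier, lay at 0.437 to 2.81 TPM in vehicle and 3.98 to 6.47 TPM with FLX, and Mthfd2l, a mitochondrial folate enzyme, at 4.09 to 14.8 TPM and 15.4 to 39.7 TPM, both without overlap. Their log2 differences were 1.52 ± 0.29 (limma adjusted p = 0.0352) and 1.40 ± 0.25 (0.0287). Rassf4, a Ras-association protein, had 1.96 ± 0.37 (0.0345), Sptssb, a subunit of serine palmitoyltransferase, 1.82 ± 0.35 (0.0382) and Fam131c 1.69 ± 0.31 (0.0345). Tex38 was listed at 0 in 6 vehicle libraries and at 0.751 to 1.56 TPM with FLX. Abcb1a, the P-glycoprotein drug efflux pump of brain endothelium, averaged 12.1 ± 1.60 TPM in vehicle and 18.5 ± 3.18 TPM in FLX libraries (SD, n = 8 each), a log2 difference of 0.61 ± 0.11 (0.0352). It was the 1 called gene among 13 tested endothelial markers, where 0.28% of all tested genes were called higher. At p under 0.05, 3 of the 13 were higher and none lower, against 10.5% and 6.25% of all genes. The summed level of these markers was 292.5 to 386.5 TPM in vehicle and 312.1 to 458.4 TPM in FLX libraries.

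Lpo, lactoperoxidase, which oxidises thiocyanate and halides with hydrogen peroxide, rose from a low level. It was at 0 to 1.22 TPM with a median of 0.256 in vehicle libraries, where vehicle 2 and 5 were listed at 0, and at 0.691 to 6.30 TPM with a median of 2.36 with FLX. 7 FLX libraries lay above all vehicle libraries, FLX 6 was the highest and FLX 8 lay inside the vehicle range. The log2 difference was 2.81 ± 0.55 (limma adjusted p = 0.0382). The two-sided exact permutation p was 0.000311 (0.00124 adjusted over 4 genes), where the smallest this design allows is 0.000155. Lpo was chosen for this test with earlier results of these data known, and the adjustment over 4 genes does not account for that choice. Among 9 tested haem peroxidase and peroxide source genes, Pxdn, a peroxidase that crosslinks the basement membrane, fell from 96.0 ± 29.8 to 49.6 ± 13.7 TPM (log2 -0.93 ± 0.19, 0.0455), and the uncalled Epx, eosinophil peroxidase, named after its value was seen, had 1.80 ± 0.54 (0.119). Of the 9 genes 2 were higher and 2 lower at p under 0.05, against 10.5% and 6.25% of all genes. Mpo, the neutrophil enzyme, was listed at 0 in all 16 libraries.

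The transporter that FLX blocks was out of reach in this tissue. Slc6a4 was listed at 0 in 14 of 16 libraries and at 0.136 and 0.32 TPM in FLX 6 and 8, so it was not tested by limma (log2 difference 0.41, two-sided exact permutation p = 0.467). Of 19 tested genes for serotonin synthesis, transport and receptors none was called. At p under 0.05, 4 were above 0 and 1 below, against 10.5% and 6.25% of all genes. The receptor gene Htr6 had a log2 difference of -0.82 ± 0.26 (limma adjusted p = 0.129) and Maoa, which breaks serotonin down, 0.44 ± 0.16 (0.173). Brd1 itself was at 26.5 to 41.0 TPM in vehicle and 24.9 to 39.3 TPM with FLX, a log2 difference of -0.11 ± 0.11 (two-sided exact permutation p = 0.324).

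Gm27867 gave the largest rise. It was listed at 0 in 7 vehicle libraries and at 0.882 TPM in vehicle 7, and was at 0.719 to 10.3 TPM with a median of 2.04 with FLX, highest in FLX 2, so the fitted log2 difference of 4.18 ± 0.54 (limma adjusted p = 0.0127) rests on the added 0.1. It is annotated as a miscellaneous RNA at chr6:52158432-52158556 on GRCm38, inside an exon of Hotairm1, a noncoding RNA of the HoxA cluster. Its GENCODE sequence is shown because it was the gene called whichever library was left out.
Gm27867: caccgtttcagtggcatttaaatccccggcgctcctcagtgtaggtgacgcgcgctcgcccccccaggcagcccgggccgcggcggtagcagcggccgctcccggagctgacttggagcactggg
Hotairm1 itself was listed at 0 in 4 vehicle libraries and 1 FLX library and reached 3.50 TPM in vehicle 7 and 5.46 TPM in FLX 1. Other uncertain members of the rise were Gm10344, listed at 0 in all 8 vehicle libraries and at 0.126 to 0.871 TPM with FLX, Gm14376, listed at 0 in 7 vehicle libraries, and Gm13629, which overlaps an exon of the sodium channel gene Scn9a on the other strand. A730020M07Rik, a long noncoding RNA, had a log2 difference of 2.07 ± 0.32 (limma adjusted p = 0.0184). Of the 79 calls 65 were protein-coding genes with several exons, 82.3% against 61.7% of all tested genes.

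Of the 13 genes that fell, 4 were not protein-coding. Mir6982 is an annotated microRNA gene at chr18:60958073-60958140 on GRCm38, inside an intron of Camk2a, and it fell from 27.0 ± 9.60 to 10.7 ± 3.40 TPM (SD, n = 8 each) beside the lower Camk2a level given above. The reads cannot tell the microRNA precursor from Camk2a intron, and its level need not be that of the mature microRNA. Gm43445, at chr3:144197172-144199262 in an intron of Lmo4, was at 1.02 to 5.77 TPM in vehicle and 0.438 to 0.836 TPM with FLX, without overlap (log2 -1.83 ± 0.28, limma adjusted p = 0.0184). Gm24067, a small nucleolar RNA at chr9:20889484-20889568 that shares bases with an exon of Ppan, was at 3.40 to 8.86 TPM and at 0.192 to 3.08 TPM, again without overlap (-2.75 ± 0.44, 0.0203). Gm24325 was listed at 0 in 6 FLX libraries, and AC087559.2, on an unplaced scaffold, and Hsd3b6 in 7 each. Celf5, a splicing regulator of neurons, had -0.66 ± 0.13 (0.046), Tbl1xr1, a corepressor subunit, -0.54 ± 0.10 (0.0352) and Zfhx2, a homeobox factor, -0.47 ± 0.09 (0.0421). Celf5 and Zfhx2 share exon bases with antisense genes.

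Of 81 tested nuclear-encoded respiratory chain subunits 70 were above 0, 29 were higher and 1 lower at p under 0.05 (10.5% and 6.25% of all genes), and the median was 0.14, or 0.09 after median-ratio scaling. Atp5g3, a subunit of the ATP synthase rotor, had the lowest p of them and did not overlap between groups (log2 0.25 ± 0.06, limma adjusted p = 0.062). Of 84 cytosolic ribosomal protein genes 79 were above 0, with a median of 0.13 (0.08 after median-ratio scaling). At p under 0.05, 15 of the 84 were higher and none lower, against 10.5% and 6.25% of all genes. Of 25 genes for Gq-coupled signalling 5 had p under 0.05 below 0 and 3 above, against 6.25% and 10.5% of all genes. The NMDA receptor genes Grin2a and Grin2b had log2 differences of -0.92 ± 0.26 (limma adjusted p = 0.0966) and -0.72 ± 0.22 (0.125). Of 19 circadian clock genes Nr1d1 had -0.38 ± 0.09 (0.065). In these lists and in those for neurotrophic signalling, heat shock and the unfolded protein response no gene was called.

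The same dose was given to Brd1+/- mice. Their libraries are separate from the WT ones, 8 with FLX and 8 with vehicle. In Brd1+/- mice too the sample codes of vehicle and FLX lie apart, so codes and drug cannot be told apart. The highest FLX codes all belong to WT libraries, so the genotypes also differ in part by code. Of 24336 genes tested there 178 were called by limma (0.731%), 3 higher and 175 lower with FLX. Of the 79 genes called in WT 76 could be tested, and none was among them. Of 64 genes that rose in WT mice, 57 had a log2 difference below 0 in Brd1+/- mice and 7 above, with a median of -0.24 against -0.04 over all genes. At p under 0.05 there were 12 genes in the opposite direction, all of them genes that rose in WT (5.66% of all genes were lower at that level in Brd1+/- mice), and 1, Ddit4, in the same direction (1.28% of all genes were higher). Of 12 genes that fell in WT mice, 8 were below 0 and 4 above, with a median of -0.05.

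Lpo was at 2.81 ± 0.55 in WT and at -1.89 ± 0.64 in Brd1+/- mice on the log2 scale, and the difference between these, 4.70 ± 0.87, had a limma adjusted p of 0.00336. P2rx5 had 2.41 ± 0.42 and -1.08 ± 0.46 (difference 3.49, adjusted p = 0.00286) and Vamp1 1.66 ± 0.27 and -0.76 ± 0.34 (2.42, 0.00334). Mean Lpo with vehicle was 0.391 TPM in WT and 1.29 TPM in Brd1+/- mice, and with FLX 2.83 and 0.332 TPM. Mean P2rx5 was 0.524 and 1.48 TPM with vehicle and 2.765 and 0.546 TPM with FLX. Mean Vamp1 was 83.1 and 143.5 TPM with vehicle and 252 and 83.0 TPM with FLX. Whether vehicle levels differed by genotype was not tested, nor was the tissue in the Brd1+/- libraries. Npas4 was at -0.95 ± 0.19 in WT and 0.67 ± 0.33 in Brd1+/- mice (-1.62, 0.0263). Egr1, at -1.15 and -0.04, did not reach the threshold (-1.11 ± 0.35, 0.0936). Plin4 was above 0 in both genotypes, at 2.22 and 0.58 ± 0.52 (1.64 ± 0.68, 0.213), as was Cdkn1a at 0.67 and 0.50 ± 0.27 (0.17 ± 0.31, 0.835). In Brd1+/- mice alone their unadjusted limma p was 0.278 and 0.0824. Over all 26657 genes tested for this interaction 455 were called (1.71%), and 54 of the 79 genes were among them, 52 that rose in WT and 2 that fell. The WT difference that chose the 79 is part of the interaction, so this count is no independent support.

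**Figure D5:**
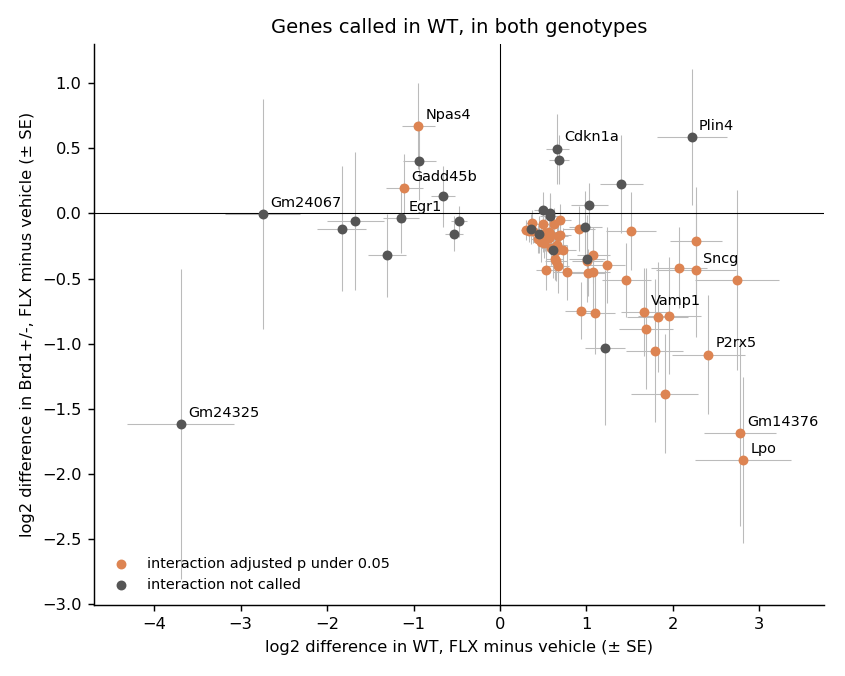
Each point is 1 of the 76 genes called in WT that were also tested in Brd1+/- mice, with its log2 difference (FLX minus vehicle) in WT on the x axis and in Brd1+/- on the y axis, both with SE bars. Most genes above 0 in WT lie below 0 in Brd1+/-, orange marks an interaction at adjusted p under 0.05, and Plin4 and Cdkn1a lie above 0 in both.

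The 8 WT libraries with IMN share their vehicle controls with the FLX comparison. Their sample codes run through the same range as the FLX codes, apart from those of vehicle. A difference of both drugs from vehicle and one that followed the codes therefore cannot be told apart. No gene was called between FLX and IMN by limma, the lowest adjusted p was 0.858, and 1123 of the 23501 tested genes (4.78%) had an unadjusted p under 0.05. Between IMN and vehicle limma called no gene of 23644 tested. The adjusted p with IMN was 0.722 for Npas4 and 0.970 for each of the other genes compared next. Set side by side against the shared vehicle group, Egr1 was at -1.15 with FLX and -1.03 with IMN, Npas4 at -0.95 and -1.08 and Gadd45b at -1.11 and -0.78. Plin4 was at 2.22 and 1.67, Lpo at 2.81 and 1.21, Vamp1 at 1.66 and 0.54 and Gjb6 at 1.03 and 0.44. Directly compared, FLX minus IMN was 1.13 ± 0.45 for Vamp1, 1.61 ± 0.67 for Lpo and -0.12 ± 0.33 for Egr1, each with a limma adjusted p of 0.858 or more. A p of that size does not show that the drugs act alike.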

How the data were processed

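The 16 WT libraries (8 FLX, 8 vehicle) are part of 48 in 6 groups, taken from the sample titles. Per the study's methods and the labels, TruSeq libraries were aligned by the authors with HISAT2 2.1.0 to GRCm38 and quantified with StringTie 1.3.4, and the submitters' processing notes also name FastQC and Trimmomatic. The values the authors deposited are TPM per Ensembl gene. They keep no read counts, so depth is unknown, no interval or floor was given, and precision rests on 8 libraries per group. TPM summed to 999524 to 999751 per library, 23464 to 25611 genes were above 0, no pair of libraries was identical and pairwise r was 0.874 to 0.958. All 16 libraries are labelled female.

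Symbols, positions and overlaps came from GENCODE M21 (GRCm38), which held 99.7% of the 52636 gene IDs, and promoters from RefSeq (GRCm38.p6). Whether counting used strand is not given in the sources used here, so genes that share exon bases, and antisense pairs, are uncertain. Genes at 0.1 TPM or more in at least 8 libraries were tested with limma 3.58.1 (R 4.3.3) on log2(TPM + 0.1), with a trend in the prior and Benjamini-Hochberg adjustment at 0.05. Fold changes are on that scale and understate low genes. Brd1, Lpo, Fos and Slc6a4 were also tested by two-sided exact permutation. The fit was tested on simulated data. The authors tested counts with edgeR, and those counts were not used here.

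The named genes were Brd1, Lpo, Fos and Slc6a4, the 15 largest differences per direction among called genes at 1 TPM or more, the 5 lowest p per direction, up to 6 called genes of each of 45 gene lists and, for lists with none, up to 4 by p. Genes named besides these were chosen after their values were seen. The comparison, the lists and the tests were chosen with earlier results of these data known. Alternatives covered pseudocounts, filters, scaling, the prior, library weights, a replicate block, sample codes and each library left out. Some results are not reported here.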

Additional observations from a re-analysis of the deposited data

Results flagged for a closer look

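In 8 of 60 groups of 8 libraries, 1 library stood apart by Dixon's criterion, for which chance gives about 1 in 20 groups. The ratio of its gap to the group's range was 0.656 for Fos in vehicle 3, 1.0 for Gm27867 in vehicle 7, 0.529 for Vamp1 in FLX 8 and 0.623 for Ucp3 in vehicle 1. It was 1.0 for AC087559.2 in FLX 4, 0.573 for Gm24325 in vehicle 7, 0.582 for Tbl1xr1 in FLX 1 and 0.716 for Zfhx2 in vehicle 3.

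For 15 of the 27 genes with the largest differences, the FLX difference in WT mice differed from that in Brd1+/- mice by the limma interaction test at an adjusted p under 0.05. On the log2 scale, WT minus Brd1+/-, it was 4.94 for Gm27867, 4.70 for Lpo, 3.26 for Tex38, 3.49 for P2rx5, 2.71 for Sncg, 2.49 for A730020M07Rik and 2.75 for Rassf4. It was 2.62 for Sptssb, 2.85 for Gm13629, 2.57 for Fam131c, 2.42 for Vamp1, 1.65 for Ucp3 and 1.97 for Nefh, and -1.30 for Gadd45b and -1.62 for Npas4. These genes were chosen for their WT difference, which is part of the interaction.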

How the results depend on the processing

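The count of 79 called genes moved with most settings. It was 51 with no filter, 128 with at least 1 TPM in 8 libraries, 27 with no trend in the prior and 1848 with library weights. With a term for low or high sample code within each treatment it was 45, and in a single fit of all 48 libraries 10. That term splits the codes inside each group, so it cannot adjust for the gap between vehicle and FLX codes. Among multi-exon protein-coding genes alone, 111 were called higher and 24 lower, against 66 and 13. The count stayed within 1.5 times at 73 and 82 with pseudocounts of 0.01 and 1, 66 with median-ratio scaling, 73 with quantile normalization and 76 with a robust prior. The share of calls that were higher was 83.5%, against 74.2% with median-ratio scaling and 59.0% with library weights. Leaving out 1 library gave 1 to 956 calls. With a replicate block 0 genes were called by limma, at 1131 with unadjusted p under 0.01; same-numbered libraries correlated at -0.225 to 0.136, 2 of 8 numbers were over 0.1 and 1 of 8 FLX libraries correlated best with its own number, so the numbers do not pair the libraries. Of alternatives chosen after the data were seen, 1262 and 287 genes were called without vehicle 1 and 3 and without vehicle 1 and FLX 2, and 0 with the excitatory score, the oligodendrocyte score or both as covariates, at 1110, 953 and 1152 genes with unadjusted p under 0.01. The log2 difference of Fos was then 0.25, 0.14 and 0.31, the reverse of -0.23, and with 1 library left out it was -0.61 to -0.11, the former without vehicle 3 (exact permutation p = 0.0275). The 455 interaction calls became 1671 with library weights and 247 to 695 with 1 library left out, and 330 with the replicate block. No gene was called between FLX and IMN under any alternative run. Of the other values of 38 named genes, 724 kept their direction and side of the threshold, 539 kept the direction alone, 1 newly passed and 3 reversed; where no value above shows it, the cause was not tested. The depth of each library is unknown, so genes near 0 TPM are limited by detection.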
